A study of Mus musculus with 6 samples.

Results

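Type I interferon-stimulated genes are the genes that a cell switches on when interferon alpha or beta binds its receptor. The 43 described here were chosen by name from that response, and each of the 43 had 1 row among the 31626 genes of every library. None carried the value that stands for a failed estimate. They were read in 7 groups by role: the ISG15 system and signalling (5 genes), RNA and DNA sensors (9), Oas and Ifit effectors (10), other antiviral effectors (11), antigen processing (3), Parp9 and its partners (3) and nuclear body proteins (2).

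The libraries came from mouse common myeloid progenitors, immature blood cells, of C57Bl/6 origin and with a floxed Dot1l gene. All had been transformed with a retrovirus (MSCV-MN1-IRES-GFP) that carries the leukaemia oncogene MN1 and GFP. The 3 Dot1l-deleted libraries (Dot1l -/-) were from cells transduced with Cre recombinase, which removes Dot1l, the gene of the histone H3 lysine 79 methyltransferase. The 3 control libraries (Dot1l flox/flox) were from cells transduced with a control. Cells of both groups grew in methylcellulose with serum, IL3, IL6 and SCF and were sorted at day 7 after transduction. No group received Cre with Dot1l left intact, so the effects of Cre and of the deletion cannot be told apart. Whether the 3 samples of a group are separate cultures or animals is not stated in the labels; the p-values cover the spread among these samples alone, and that spread may be technical.

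In the textbook pathway, interferon alpha and beta bind the receptor pair IFNAR1 and IFNAR2, and the kinases JAK1 and TYK2 are activated. A complex that includes STAT2 and IRF9 then binds interferon-stimulated response elements in promoters. The products sense foreign nucleic acid, block viral replication, process antigen and feed back on the pathway. Interferons also act on blood stem and progenitor cells, where the same genes serve as a readout of exposure.

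Values are FPKM, fragments scaled to gene length and to the mapped fragments of the library, as the authors deposited them. Dot1l was 8.24, 8.17 and 5.80 FPKM in the Dot1l-deleted libraries, against 20.2, 22.6 and 19.6 FPKM in the controls (log2 fold change -1.39, SE 0.157, limma adjusted p = 0.000124). One library, Dot1l-deleted 3, differed from the others. Its summed FPKM was taken up to 38.95% by the 10 highest rows, against 6.59% to 10.8% in the other 5 libraries, and its highest ribosomal RNA row reached 81820 FPKM, against 485 to 1659. Median-of-ratios scaling, which sets libraries to a common typical gene, moved the median log2 fold change over the 11924 tested genes to 0.0011, against -0.16 as deposited. Calls are therefore given as deposited and, where they differ, after this scaling. FPKM gives no read counts; steps of single fragments among low values put the depths at 0.737 to 1.0 of the first control library.

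Of the 43 genes, 37 passed the filter of a mean of at least 1 FPKM over the 6 libraries. limma on log2(FPKM + 1) called 15 higher and 3 lower after Dot1l deletion and did not call 19, at a Benjamini-Hochberg adjusted p under 0.05 over 11924 genes. Among all genes tested, 7.43% were called higher and 12.2% lower. After scaling, 31 were called higher, 3 lower and 3 not at all, where 23.0% of all tested genes were called higher and 22.3% lower. The 3 genes called lower in both fits were Psmb8, Psmb9 and Tap1, which cut and transport peptides for MHC class I.

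Oas1b, Oas1g, Oas2, Oas3, Oasl1 and Ifit1 passed the filter only through their level in the Dot1l-deleted libraries, so their place among the tested genes is tied to that level. Without these 6, 10 of 31 were called higher and 3 lower as deposited, and 25 and 3 after scaling. The median log2 fold change was 0.42 as deposited and 0.59 scaled over the 37 genes, and 0.36 and 0.48 over the 31. For scaled values, all Dot1l-deleted libraries lay above all controls in 32 of the 37 genes and in 26 of the 31, and in 28.2% of all tested genes.

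**Figure D1:**
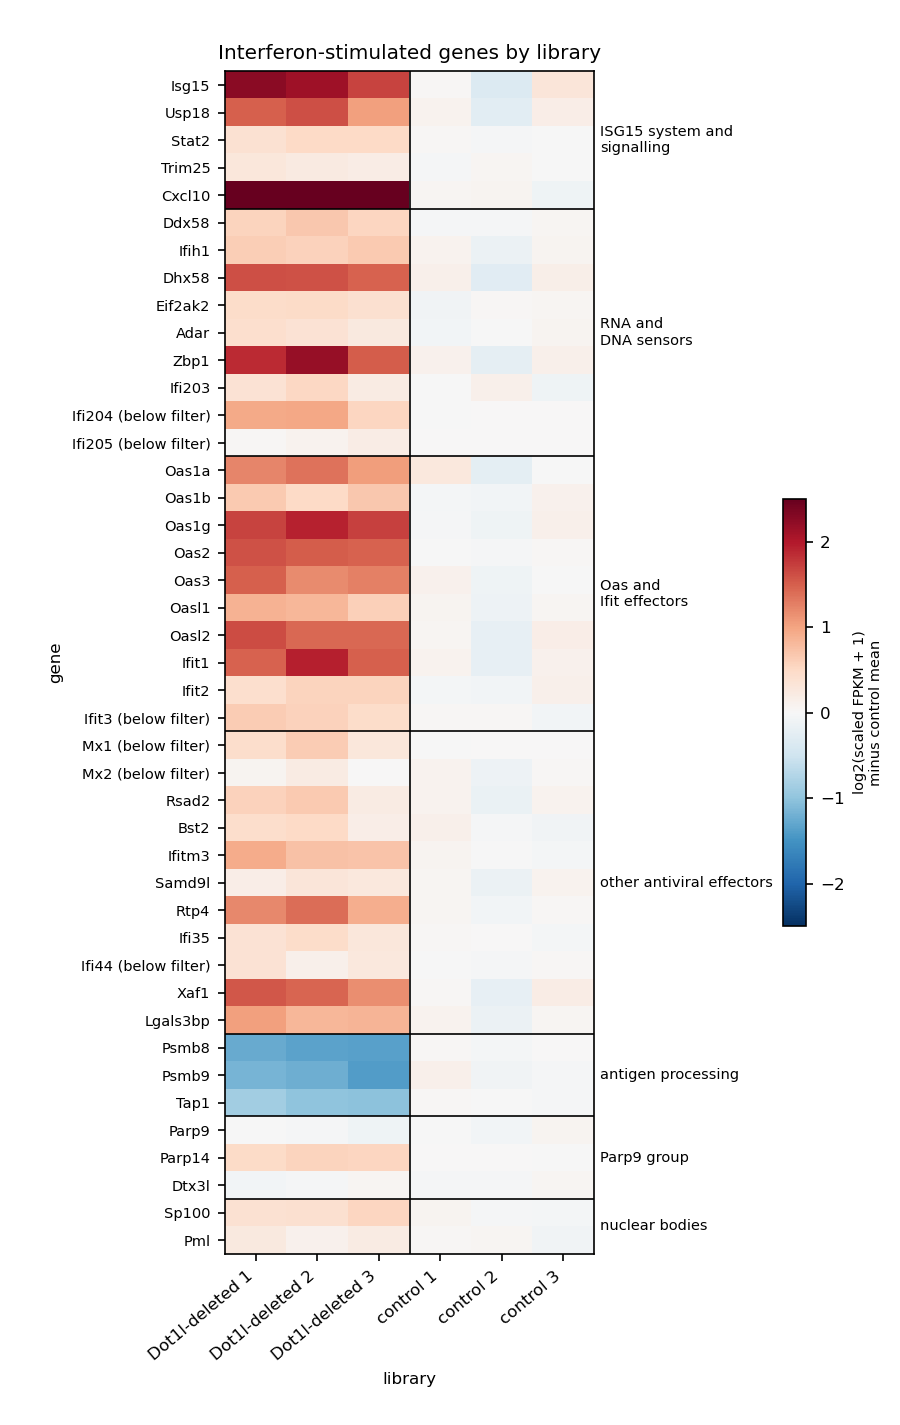
Level of each of the 43 interferon-stimulated genes (rows, grouped by role) in each library (columns, Dot1l-deleted left of control), as log2(scaled FPKM + 1) minus the control mean. Cxcl10 lies beyond the red end of the colour scale, and the 3 antigen processing genes are blue in all 3 Dot1l-deleted libraries.

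Once scaled, the 3 Dot1l-deleted libraries gave similar medians, but single genes still differed among them. Scaled Isg15 was 12.6, 11.5 and 8.30 in libraries 1, 2 and 3, and Zbp1 was 6.53, 8.37 and 4.91. Other genes were not lower in library 3, such as Cxcl10 at 26.6, 24.9 and 27.4. For the tested genes outside antigen processing, the median scaled log2 level over the control mean was 0.63, 0.66 and 0.63 in Dot1l-deleted libraries 1, 2 and 3. For antigen processing it was -1.16, -1.23 and -1.36. Highly expressed genes dominated the summed FPKM: Ifitm3 and Psmb8 together held 43.5% to 46.7% of the sum over the 43 genes in the Dot1l-deleted libraries and 51.9% to 52.4% in the controls.

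**Figure D2:**
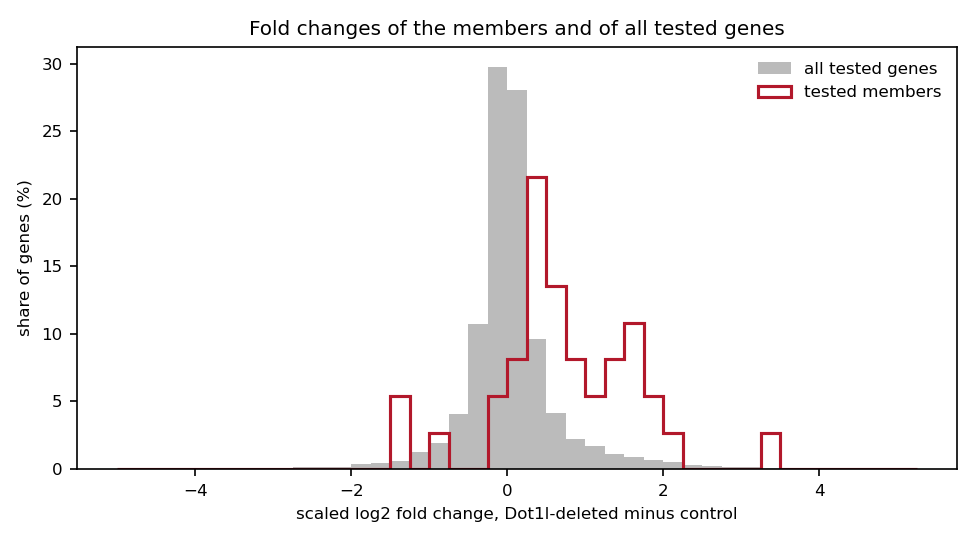
Share of genes (per cent, vertical axis) by scaled log2 fold change, Dot1l-deleted minus control (horizontal axis), for the 37 tested interferon-stimulated genes (red outline) and all 11924 tested genes (grey). The red outline has a median of 0.59 and the grey bars one of 0.0011, and the 3 antigen processing genes form the red steps on the left.

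Promoters of 6 genes are shown because they hold, or lack, the letters to which the interferon-activated complexes are known to bind. They run from 250 bases before to 50 bases after the transcription start (RefSeq, build GRCm38.p6), 5′ to 3′ on the strand of the gene. Capitals mark GAAANNGAAA, the core of the interferon-stimulated response element, and TTCNNNGAA, the gamma-activated site, both searched on both strands. Cxcl10, Isg15 and Oas1g had the largest fold changes among called genes with a match to GAAANNGAAA. Bst2 and Ifi203 had the 2 smallest fold changes among tested genes with that match. Psmb9, added after its values were seen, was called lower and had no match to either.
Cxcl10 chr5:92348840-92349139, minus strand: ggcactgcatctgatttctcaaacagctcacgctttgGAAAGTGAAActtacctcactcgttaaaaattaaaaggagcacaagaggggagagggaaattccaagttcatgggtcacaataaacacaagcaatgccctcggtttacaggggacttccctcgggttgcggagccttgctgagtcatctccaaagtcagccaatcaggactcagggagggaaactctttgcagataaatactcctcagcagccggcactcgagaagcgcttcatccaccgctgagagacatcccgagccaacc
Isg15 chr4:156200769-156201068, minus strand: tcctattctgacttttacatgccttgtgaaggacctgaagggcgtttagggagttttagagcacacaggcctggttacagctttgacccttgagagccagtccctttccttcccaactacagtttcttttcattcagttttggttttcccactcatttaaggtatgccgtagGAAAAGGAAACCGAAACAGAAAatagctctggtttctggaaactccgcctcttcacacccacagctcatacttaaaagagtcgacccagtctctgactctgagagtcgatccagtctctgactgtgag
Oas1g chr5:120887564-120887863, minus strand: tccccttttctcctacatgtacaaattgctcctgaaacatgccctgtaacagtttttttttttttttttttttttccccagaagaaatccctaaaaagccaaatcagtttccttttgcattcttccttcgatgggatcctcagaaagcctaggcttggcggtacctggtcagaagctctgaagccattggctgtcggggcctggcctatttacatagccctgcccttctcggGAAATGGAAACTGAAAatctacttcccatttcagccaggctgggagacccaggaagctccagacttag
Bst2 chr8:71537423-71537722, minus strand: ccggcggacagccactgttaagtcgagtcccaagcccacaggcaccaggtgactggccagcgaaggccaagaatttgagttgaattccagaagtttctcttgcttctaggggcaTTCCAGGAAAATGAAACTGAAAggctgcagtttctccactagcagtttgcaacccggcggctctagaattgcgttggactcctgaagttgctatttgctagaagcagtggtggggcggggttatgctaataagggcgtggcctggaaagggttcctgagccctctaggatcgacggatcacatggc
Ifi203 chr1:173942443-173942742, minus strand: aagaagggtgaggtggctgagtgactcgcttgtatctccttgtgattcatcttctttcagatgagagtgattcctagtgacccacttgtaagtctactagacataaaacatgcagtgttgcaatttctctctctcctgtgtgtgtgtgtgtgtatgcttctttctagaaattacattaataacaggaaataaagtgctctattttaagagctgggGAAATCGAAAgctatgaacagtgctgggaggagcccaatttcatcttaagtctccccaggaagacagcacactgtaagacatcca
Psmb9 chr17:34187281-34187580, minus strand: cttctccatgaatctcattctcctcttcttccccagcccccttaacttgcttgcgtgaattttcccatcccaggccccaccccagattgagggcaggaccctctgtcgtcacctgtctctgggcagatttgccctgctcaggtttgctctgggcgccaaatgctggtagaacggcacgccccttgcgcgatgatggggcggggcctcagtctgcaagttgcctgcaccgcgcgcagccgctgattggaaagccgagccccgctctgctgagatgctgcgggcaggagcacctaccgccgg

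In these windows the motif of Cxcl10 lay at -213 to -204 from the start, and Isg15 had 3 overlapping copies between -78 and -57. The 2 overlapping copies of Oas1g ended 3 bases before the start. In Bst2 the gamma-activated match at -136 to -128 overlapped the first of 2 response element matches. Of the 43 genes, 32 had a promoter in the RefSeq table, and 16 of these held GAAANNGAAA, against 3.99% of the 27025 genes with a promoter there. TTCNNNGAA was found in 8 of 32, against 9.55% of all genes. A match is a description of letters and not of binding. The response element letters were in 6 of the 10 called-higher genes with a promoter: Isg15, Cxcl10, Oas1a, Oas1g, Oas3 and Ifit1. Among those 10, Oas1g, Oas3, Ifit1 and Oasl1 passed the filter only through the Dot1l-deleted libraries. Ifi203, Ifih1, Ddx58, Ifitm3, Bst2, Stat2, Rsad2 and Eif2ak2 also held the letters and were not called as deposited. The letters were in 0 of the 3 antigen processing genes, of which Psmb8 held TTCNNNGAA at -97 to -89. They were also in 0 of the 2 nuclear body genes, both called higher after scaling. The 1 gene of the Parp9 group with a promoter lacked them too. So did Oasl1, Oasl2, Xaf1 and Lgals3bp, which were called higher as deposited. Whether the letters go with the direction of change was not tested.

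Of the 5 genes of the ISG15 system and signalling, 3 were called higher as deposited and 5 after scaling. Over all tested genes, 7.43% and 23.0% were. Cxcl10, a chemokine that draws T cells, had 27.9, 25.9 and 20.7 FPKM in the Dot1l-deleted libraries, against 1.97, 1.97 and 1.63 FPKM in the controls. It was 13.4-fold higher, with a log2 fold change of 3.17 (SE 0.149, limma adjusted p = 3.956e-07), and the groups were far apart in every library. Isg15, the ubiquitin-like protein joined to other proteins during the response, had 13.3, 11.99 and 6.27 FPKM in the Dot1l-deleted libraries, against 2.10, 1.35 and 2.67 FPKM in the controls. It was 5.16-fold higher (log2 1.89, SE 0.258, limma adjusted p = 0.000467), and its lowest Dot1l-deleted library was still above every control. Usp18, which removes ISG15 and restrains the receptor, had 5.07, 5.54 and 2.43 FPKM in the Dot1l-deleted libraries and 1.32, 0.772 and 1.41 FPKM in the controls (log2 1.26, SE 0.254, limma adjusted p = 0.00559).

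Stat2, a subunit of the activated complex, had 9.70, 10.5 and 7.65 FPKM in the Dot1l-deleted libraries, against 7.56, 7.18 and 7.22 FPKM in the controls. Its log2 value of 0.30 did not pass as deposited (limma adjusted p = 0.188), and it was called higher after scaling (0.46, limma adjusted p = 0.000626). Trim25, the ubiquitin ligase that activates RIG-I, had 23.3, 22.2 and 15.7 FPKM in the Dot1l-deleted libraries and 19.2, 19.9 and 18.9 FPKM in the controls. Its groups overlapped as deposited (log2 0.06, limma adjusted p = 0.841), and the scaled log2 value was 0.23 (limma adjusted p = 0.00544).

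**Figure D3:**
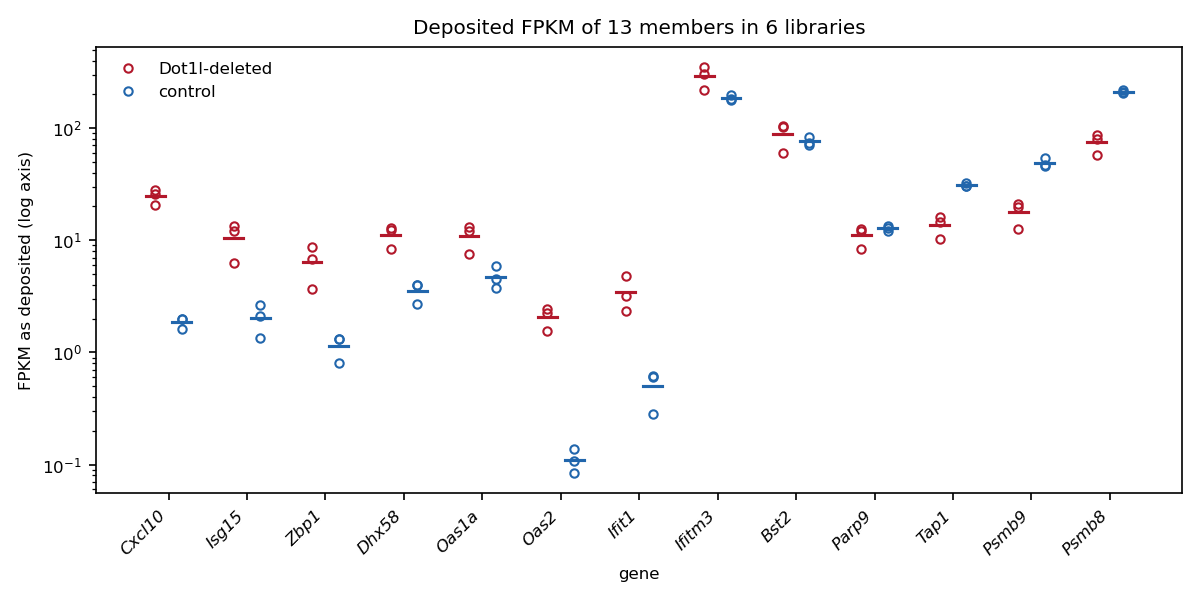
Deposited FPKM (log axis) of 13 interferon-stimulated genes, one circle per library and a bar at the group mean, Dot1l-deleted (red) left of control (blue). Cxcl10 circles sit at 20.7 to 27.9 FPKM after deletion and at 1.63 to 1.97 FPKM in controls, while Psmb8 circles sit at 57.8 to 86.6 and at 205 to 220 FPKM.

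Among the sensors, Dhx58 and Zbp1 were called higher as deposited. Dhx58 (LGP2), an RNA helicase that tunes RIG-I and MDA5 signalling, had 12.7, 12.4 and 8.29 FPKM in the Dot1l-deleted libraries, against 3.98, 2.71 and 3.98 FPKM in the controls. It was 3.13-fold higher (log2 1.40, SE 0.190, limma adjusted p = 0.000431). Zbp1, which senses Z-form nucleic acid and can start necroptosis, had 6.86, 8.71 and 3.71 FPKM in the Dot1l-deleted libraries, against 1.31, 0.808 and 1.33 FPKM in the controls. Its mean was 5.59-fold higher (log2 1.735, SE 0.253, limma adjusted p = 0.000704). In both genes every Dot1l-deleted library exceeded every control.

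Ddx58 (RIG-I) and Ifih1 (MDA5), the helicases that detect viral RNA, were intermediate. Ddx58 had 11.4, 12.2 and 8.07 FPKM in the Dot1l-deleted libraries, against 7.47, 7.34 and 7.73 FPKM in the controls (log2 0.42, limma adjusted p = 0.0947). Ifih1 had 6.78, 6.52 and 5.04 FPKM in the Dot1l-deleted libraries, against 4.52, 3.595 and 4.31 FPKM in the controls (log2 0.46, limma adjusted p = 0.0616). The groups did not overlap in either gene, and both were called higher after scaling, with log2 values of 0.59 and 0.62. Eif2ak2 (PKR), which halts translation on binding double-stranded RNA, had a log2 value of 0.27 as deposited and 0.45 scaled. Adar, which edits double-stranded RNA, had 0.17 and 0.35. Both were called only after scaling.

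Ifi203, Ifi204 and Ifi205 belong to the DNA-binding family that includes human IFI16. Ifi203 was not called in either fit (1.57, 1.84 and 0.926 FPKM in the Dot1l-deleted libraries, 0.993, 1.18 and 0.837 FPKM in the controls). Ifi204 was below the filter, at 1.08, 1.11 and 0.406 FPKM in the Dot1l-deleted libraries, against 0.0463, 0.0723 and 0.0588 FPKM in the controls. Ifi205 was listed at 0 in all 3 controls and at 0.0255 to 0.105 FPKM after deletion. Of their 50-base stretches, 12.2% for Ifi203 and 18.6% for Ifi205 also occur in transcripts of another gene, and Ifi204 shares sequence too, so the split of their reads is uncertain. Of the sensors tested, 2 of 7 were called higher as deposited and 6 of 7 after scaling. The shares over all tested genes were 7.43% and 23.0%.

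Oas proteins make oligoadenylates that activate RNase L, and Ifit proteins bind foreign RNA ends. As deposited, 7 of the 9 tested were called higher, against 7.43% of all tested genes, and after scaling 9 of 9, against 23.0%. Of these, 6 passed the filter only through the Dot1l-deleted libraries; of the other 3, Oas1a, Oasl2 and Ifit2, 2 were called higher as deposited and 3 after scaling. Oas1a had 12.1, 13.1 and 7.52 FPKM in the Dot1l-deleted libraries, against 5.83, 3.74 and 4.50 FPKM in the controls (2.33-fold, log2 1.05, SE 0.211, limma adjusted p = 0.00552). Oasl2 had 6.79, 5.73 and 4.15 FPKM in the Dot1l-deleted libraries, against 1.60, 1.15 and 1.77 FPKM in the controls (3.69-fold, log2 1.38, SE 0.192, limma adjusted p = 0.000526). Both were above the filter in the controls alone, and in both every Dot1l-deleted library was higher than every control.

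Oas1g, Oas2, Oas3 and Ifit1 had control means under 1 FPKM. Oas2 had 2.45, 2.26 and 1.55 FPKM in the Dot1l-deleted libraries, against 0.108, 0.0840 and 0.137 FPKM in the controls. Oas1g had 3.34, 4.05 and 2.44 FPKM in the Dot1l-deleted libraries, against 0.297, 0.222 and 0.446 FPKM in the controls. The ratios of the group means were 19.1 for Oas2 and 10.2 for Oas1g, and they rest on control means of 0.109 and 0.321 FPKM. Oas3 was at 2.52, 1.81 and 1.45 FPKM in the Dot1l-deleted libraries, against 0.336, 0.134 and 0.218 FPKM in the controls. Ifit1 was at 3.20, 4.79 and 2.34 FPKM in the Dot1l-deleted libraries, against 0.606, 0.284 and 0.616 FPKM in the controls.

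Oasl1, known in mouse to repress translation of Irf7, was at the edge of the threshold (log2 0.69, limma adjusted p = 0.0487) and lost its call when any 1 control library was left out. Without Dot1l-deleted library 1 or 2, the means of Oas2, Oas3 and Oasl1 fell under the filter. Oas1b, which carries a premature stop codon in C57BL/6 mice, had a log2 value of 0.51 as deposited (limma adjusted p = 0.0888) and 0.61 scaled (limma adjusted p = 0.00733). Ifit2 had 6.36, 6.98 and 5.12 FPKM in the Dot1l-deleted libraries, against 4.41, 4.29 and 4.99 FPKM in the controls, and was called only after scaling (0.51). Ifit3, below the filter, had 0.699, 0.613 and 0.359 FPKM in the Dot1l-deleted libraries, against 0.105, 0.102 and 0.0222 FPKM in the controls. Oas1a shared 57.6% of its 50-base stretches with other genes, mainly Oas1g, and Oas1g shared 45.7%, mainly with Oas1a. Ifit3 shared 51.2%, mainly with Ifit3b. The individual levels of Oas1a, Oas1g and Ifit3, and so the Oas1g ratio above, are uncertain.

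Among the other antiviral effectors, Xaf1, Rtp4 and Lgals3bp were called higher as deposited, 3 of 8 tested, and 8 of 8 after scaling. Over all tested genes the shares were 7.43% and 23.0%. Xaf1, a partner of the apoptosis inhibitor XIAP, had 6.52, 5.90 and 3.40 FPKM in the Dot1l-deleted libraries, against 1.64, 1.18 and 1.87 FPKM in the controls (log2 1.26, SE 0.219, limma adjusted p = 0.00227). Rtp4, a receptor transporter that dampens the interferon response in mouse, had 6.77, 7.92 and 3.87 FPKM in the Dot1l-deleted libraries, against 2.55, 2.24 and 2.43 FPKM in the controls (log2 1.03, limma adjusted p = 0.00663). Lgals3bp, a secreted galectin-binding glycoprotein, had 20.2, 17.4 and 12.8 FPKM in the Dot1l-deleted libraries, against 10.5, 8.57 and 9.79 FPKM in the controls (log2 0.73, limma adjusted p = 0.0141). The lowest Dot1l-deleted library exceeded the highest control in all 3 genes.

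Ifitm3, a membrane protein that blocks virus entry, was the most abundant of these effectors in FPKM. It had 348, 300.4 and 217 FPKM in the Dot1l-deleted libraries, against 197, 183 and 177 FPKM in the controls (log2 0.61, limma adjusted p = 0.0584). It was called after scaling (0.79, limma adjusted p = 0.000265). Bst2 (tetherin), which holds budding virions on the cell, had 101, 104 and 60.5 FPKM in the Dot1l-deleted libraries, against 83.9, 74.0 and 70.0 FPKM in the controls, so that the groups overlapped. Its scaled log2 value was 0.36 (limma adjusted p = 0.0271). Rsad2 (viperin), Samd9l and Ifi35 were likewise called only after scaling, with log2 values of 0.48, 0.25 and 0.37.

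Mx1, Mx2 and Ifi44 were below the filter. Mx1, which lacks coding exons in C57BL/6 mice, had 0.432, 0.648 and 0.207 FPKM in the Dot1l-deleted libraries, against 0.0388, 0.0475 and 0.0493 FPKM in the controls. Mx2, a dynamin-like GTPase, did not separate the groups, at 0.340, 0.472 and 0.214 FPKM in the Dot1l-deleted libraries and 0.378, 0.171 and 0.314 FPKM in the controls. Over the 6 genes below the filter, 5 had all Dot1l-deleted libraries above all controls, and Mx2 was the exception. Separation in that direction held for 14.3% of the 8644 genes below the filter with any value above 0. Those include genes listed at 0 in a Dot1l-deleted library, such as Ifnb1, which cannot separate in that way. The 2 shares are therefore not fully alike.

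**Figure D4:**
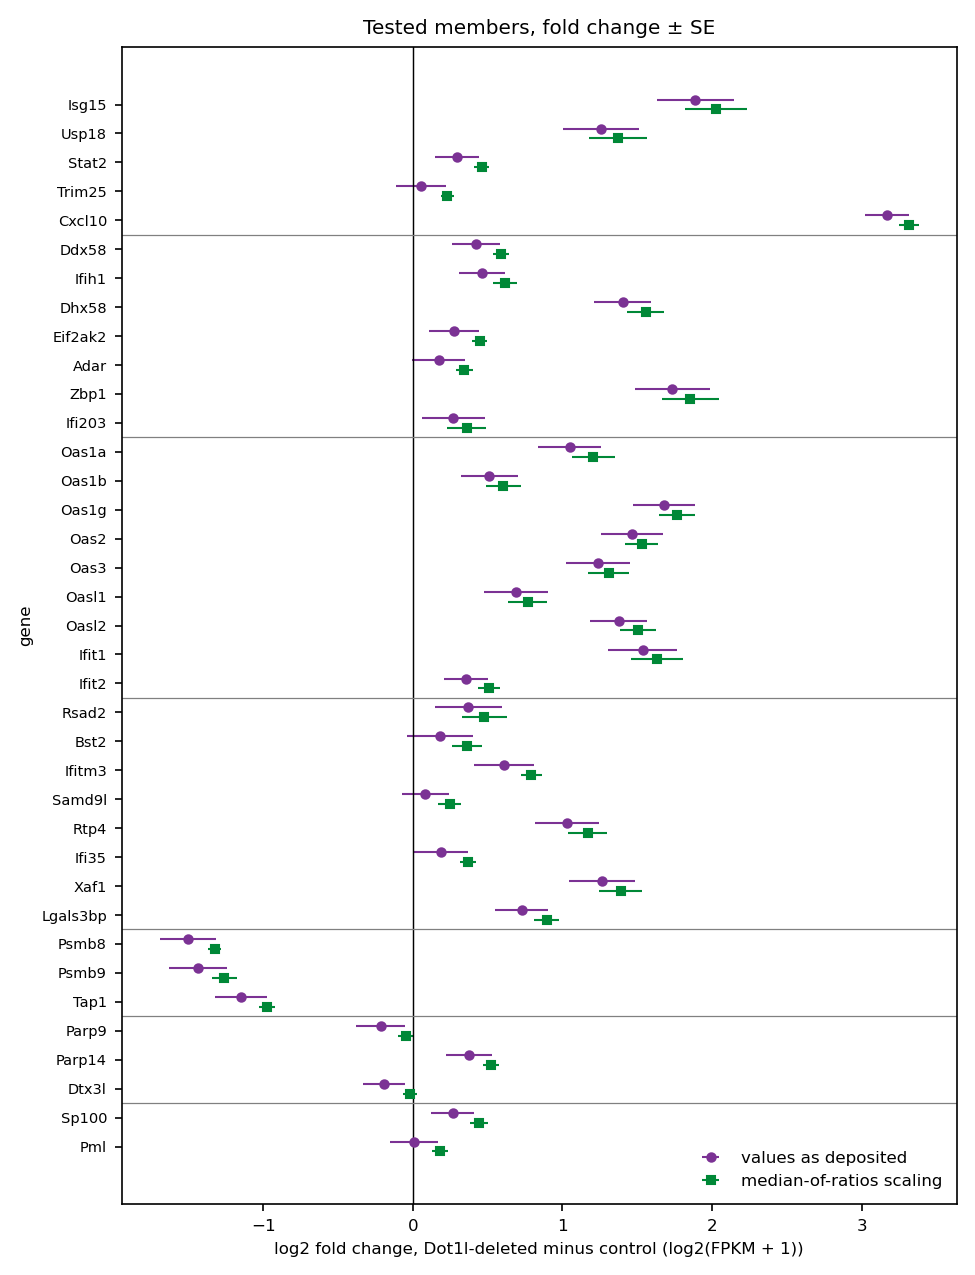
Log2 fold change on the log2(FPKM + 1) scale, Dot1l-deleted minus control, with its standard error, for the 37 tested genes as deposited (purple circles) and after median-of-ratios scaling (green squares), grouped by role with rules between groups. Cxcl10 lies farthest right at 3.17 as deposited, Psmb8, Psmb9 and Tap1 lie left of zero, and the squares of Parp9 and Dtx3l lie at -0.05 and -0.02.

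Parp9 and Dtx3l, which form a complex of an ADP-ribosyltransferase and a ubiquitin ligase and lie beside each other and Parp14 on chromosome 16, were called in neither fit. Parp9 had 12.6, 12.2 and 8.34 FPKM in the Dot1l-deleted libraries, against 12.9, 12.1 and 13.3 FPKM in the controls (log2 -0.22, limma adjusted p = 0.391; scaled -0.05, 0.506). Dtx3l had 11.0, 11.2 and 8.62 FPKM in the Dot1l-deleted libraries, against 11.7, 11.5 and 12.1 FPKM in the controls (scaled log2 -0.02, limma adjusted p = 0.750). Parp14, another ADP-ribosyltransferase, had 4.91, 5.23 and 3.72 FPKM in the Dot1l-deleted libraries, against 3.37, 3.32 and 3.20 FPKM in the controls, and was called higher after scaling (0.52, limma adjusted p = 0.000602). The nuclear body proteins Sp100 and Pml had scaled log2 values of 0.44 and 0.18. Both were called after scaling only.

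Psmb8 and Psmb9 are the inducible catalytic subunits of the immunoproteasome, and Tap1 is a subunit of the transporter that carries its peptides into the endoplasmic reticulum. All 3 were called lower after Dot1l deletion, in both fits. Psmb8 had 86.6, 80.4 and 57.8 FPKM in the Dot1l-deleted libraries, against 220, 205 and 210.0 FPKM in the controls. It was 2.82-fold lower (log2 -1.505, SE 0.188, limma adjusted p = 0.000243). Psmb9 had 20.9, 19.7 and 12.7 FPKM in the Dot1l-deleted libraries, against 54.2, 45.6 and 47.1 FPKM in the controls (log2 -1.44, SE 0.195, limma adjusted p = 0.000443). Tap1 had 16.2, 14.5 and 10.4 FPKM in the Dot1l-deleted libraries, against 32.3, 30.6 and 30.2 FPKM in the controls (log2 -1.15, SE 0.172, limma adjusted p = 0.000859). Every Dot1l-deleted library lay below every control.

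The rest of MHC class I presentation was read from 13 further genes. As deposited, 2 were called lower, Tap2 (log2 -1.05, limma adjusted p = 0.00231) and the class I heavy chain H2-K1 (log2 -0.71, limma adjusted p = 0.0257), and 11 were not called. Among all tested genes, 12.2% were called lower and 7.43% higher. After scaling, Psme1, a subunit of the proteasome activator, was also called lower (log2 -0.18, limma adjusted p = 0.00987). Tapbp, which loads peptide onto class I, was called higher (log2 0.33, limma adjusted p = 0.00432). After scaling, 22.3% of all tested genes were called lower and 23.0% higher. The count of the 13 genes called lower was thus near the share over all genes in both fits. Psmb10, the remaining inducible catalytic subunit, had 59.3, 60.6 and 39.7 FPKM in the Dot1l-deleted libraries, against 67.5, 65.6 and 60.8 FPKM in the controls (log2 -0.30, limma adjusted p = 0.307). Of 14 constitutive proteasome genes, 0 were called lower and Psma4 was called higher (log2 0.59, limma adjusted p = 0.0465). After scaling, Psma1 was called higher as well (log2 0.21, limma adjusted p = 0.0290).

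Psmb9, Tap1, Psmb8 and Tap2 are consecutive protein-coding genes on chromosome 17 in RefSeq gene order (GRCm38.p6), so the 6 genes on either side were read, a choice made after the values were seen. H2-DMa, a chaperone of MHC class II, had 12.8, 11.0 and 9.53 FPKM in the Dot1l-deleted libraries, against 53.1, 49.9 and 48.6 FPKM in the controls (4.56-fold lower, log2 -2.10, limma adjusted p = 5.351e-06). H2-Ob, a modulator of that chaperone, had a log2 value of -1.35 (limma adjusted p = 0.000746). Among the other neighbours, Brd2 and H2-Oa were not called in either fit, and H2-DMb1 and Col11a2 were called higher after scaling, at 0.21 and 0.56. H2-Ab1 and H2-Aa were not analysed here.

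**Figure D5:**
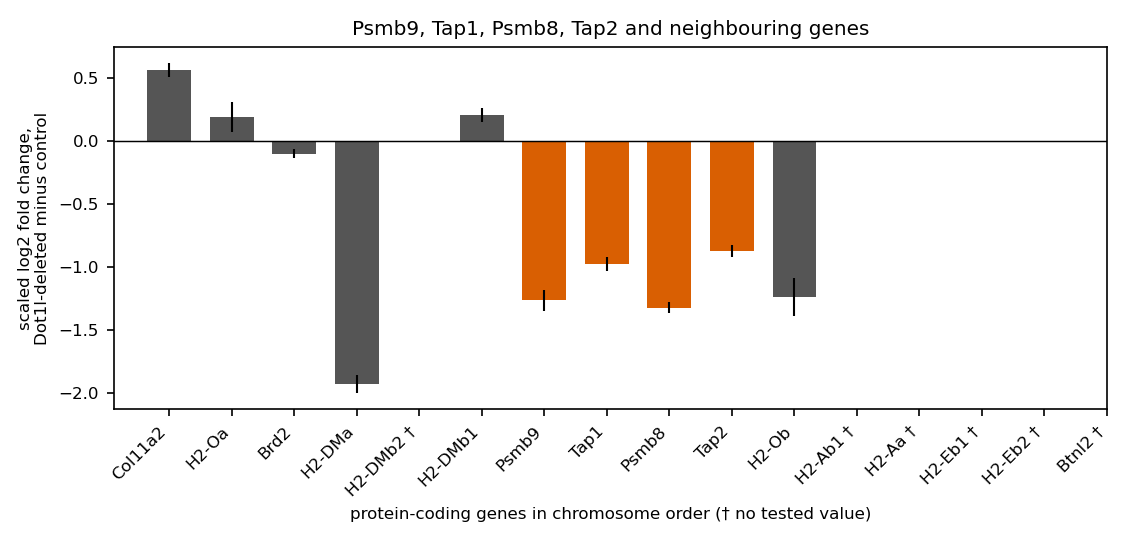
Scaled log2 fold change, Dot1l-deleted minus control, with its standard error, for Psmb9, Tap1, Psmb8 and Tap2 (orange) and the protein-coding genes on either side (grey) in chromosome order. H2-DMa and H2-Ob lie below zero with the orange genes, and H2-DMb1, between H2-DMa and Psmb9, lies at 0.21. A dagger marks genes without a tested value.

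The interferon genes themselves were near absent from these libraries. Of 20 interferon names listed, 18 were matched, 13 of them were listed at 0 in all 6 libraries, and no other value exceeded 0.0828 FPKM. Ifnb1 was listed at 0.0655 FPKM in 1 Dot1l-deleted library and at 0 elsewhere. Values this low cannot be compared between groups.

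Of 15 upstream signalling genes, 3 were called higher and 1 lower as deposited, and 11 were not called. After scaling, 9 were called higher and 2 lower, and 4 were not called. Among all tested genes, 7.43% were called higher and 12.2% lower as deposited, and 23.0% and 22.3% after scaling. Irf7, the factor that amplifies interferon production, had 8.14, 8.78 and 4.27 FPKM in the Dot1l-deleted libraries, against 2.32, 1.49 and 1.84 FPKM in the controls (3.75-fold, log2 1.44, limma adjusted p = 0.00151). Ikbke, a kinase that activates IRF3 and IRF7, had 23.5, 25.4 and 19.2 FPKM in the Dot1l-deleted libraries, against 8.76, 8.52 and 8.17 FPKM in the controls (log2 1.31, limma adjusted p = 9.825e-05). Tmem173 (STING), the adaptor of cytosolic DNA sensing, was also called higher (log2 0.60, limma adjusted p = 0.0300).

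Mavs, the mitochondrial adaptor downstream of RIG-I and MDA5, was the one called lower. Its row, deposited under the older symbol D430028G21Rik, had 9.86, 9.67 and 7.52 FPKM in the Dot1l-deleted libraries, against 21.7, 21.9 and 19.3 FPKM in the controls (log2 -1.14, limma adjusted p = 0.000301). Ifnar1 (log2 -0.10), Ifnar2 (-0.01), Jak1 (-0.31), Tyk2 (-0.01) and Irf9 (0.16) were not called as deposited. After scaling, Irf9 (0.32), Ifnar2 (0.17) and Tyk2 (0.16) were called higher and Jak1 (-0.13) lower, while Ifnar1 (0.08) was not called.

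Of 8 tested GTPases induced mainly by interferon gamma, Irgm2 (log2 0.87) and Gbp3 (1.08) were called higher and Ifi47 (-1.24) lower as deposited. Among all tested genes, 7.43% were called higher and 12.2% lower. After scaling, 5 were called higher, with Igtp (0.35), Gbp2 (0.38) and Gbp6 (0.51) added, and 2 lower, with Tgtp2 (-0.38) added. The shares over all tested genes were then 23.0% higher and 22.3% lower. In both fits the count called lower was near the share over all genes. Ifi47 had 18.8, 21.1 and 15.5 FPKM in the Dot1l-deleted libraries, against 47.1, 44.7 and 42.4 FPKM in the controls. These belong to the immunity-related and guanylate-binding families, which act on intracellular pathogens.

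Markers of more mature myeloid cells moved with the groups. Of 12 mature neutrophil markers, the 10 tested were called higher, where 7.43% of all tested genes were. Ltf, Retnlg and Fcnb passed the filter only through the Dot1l-deleted libraries; the remaining 7 were all called higher. The 12 markers had summed FPKM of 20600 to 24420 in the Dot1l-deleted libraries and 990 to 1221 in the controls. S100a8 and S100a9 made up most of these sums, at 12450 and 8126 FPKM in Dot1l-deleted library 1 and 550 and 460 FPKM in control library 1. Of 12 monocyte and macrophage markers, 8 of 10 tested were called higher and Ccr2 lower, or 6 of 8 without Csf1r and Fcgr1, which passed only through the Dot1l-deleted libraries. Emr1 was called higher after scaling as well. The 12 markers had summed FPKM of 909 to 1207 in the Dot1l-deleted libraries and 174 to 198 in the controls. Ly6c2 and Lyz2 made up most of the sum in the Dot1l-deleted libraries, at 624 and 368 FPKM in library 1. Among 7 progenitor markers, Kit, Cd34 and Gata2 were called lower and Mpo and Fcgr3 higher, and Cebpa was also called lower after scaling. Of 10 markers of plasmacytoid dendritic cells, the main interferon producers, 4 were tested. Tcf4 and Ly6d were called lower in both fits, Irf8 and Bst2 were called higher after scaling (log2 0.73 and 0.36), and Siglech and Klk1 were listed at 0 in all libraries. The part of these shifts in the interferon-stimulated genes was not tested, and in bulk RNA fewer cells of a type and less RNA per cell cannot be told apart.

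The genes whose scaled levels ran closest to the mean of the tested interferon-stimulated genes over the 6 libraries were Fgd2, Gramd3, Gzmb, Mrpl19 and Tnfaip8, with Pearson's r of 0.9975 to 0.9986. The 6 points share their split into 2 groups and their libraries, and r is given as a description. Among the tested interferon-stimulated genes, r with that mean ran from -0.976 for Psmb8 to 0.997 for Dhx58 and Xaf1, with Parp9 and Dtx3l at -0.267 and -0.263. Each of these genes is itself part of that mean, so r is a description here too.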

How the data were processed

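Per the labels' protocols, a stranded mRNA kit was used on RNA from 3 Dot1l-deleted and 3 control samples sorted at day 7. The authors deposited 1 FPKM value per gene and library. The submitters' processing notes name CASAVA 1.8.2, GSNAP, SAMtools, Cuffdiff and the build mm9, without role or order. Use of strand by the counter was not given in the sources used here.

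Rows for 378 genes with the value 999999999 in any library were left out. Genes with a mean of at least 1 FPKM entered a limma fit (version 3.58.1, R 4.3.3; lmFit, eBayes with a trend) on log2(FPKM + 1), two-sided, with Benjamini-Hochberg adjustment over 11924 genes and a threshold of 0.05. This scale understates the change of low genes. Plain folds are ratios of group mean FPKM. The fit was tested on simulated data.

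The genes, lists and tests were chosen with earlier results of these data known. All 43 genes were named by the list itself, further genes by fixed lists (the values of some list members are counted but not reported here), and the 5 closest in pattern by Pearson's r. Alternatives covered the pseudocount, filter, scaling, variance model, array weights, replicate block and each library left out. Promoters came from RefSeq and shared stretches of 50 bases from GENCODE M21 transcripts. Protein sequences were not used here.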

Additional observations from a re-analysis of the deposited data

How the results depend on the processing

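The 3 antigen processing genes were called lower under every alternative run, and all 18 calls were kept in direction under median-of-ratios scaling, quantile normalization, array weights and the replicate block. The count of interferon-stimulated genes called higher, 15 as deposited, was 31 with median-of-ratios scaling, 29 with quantile normalization, 30 with array weights, 29 with scaling and the third Dot1l-deleted library left out, and 6 of 23 tested at a mean of at least 5 FPKM. Of these 6, Isg15, Cxcl10, Dhx58 and Oas1a had control means of 2.04, 1.86, 3.56 and 4.69 FPKM. They passed the filter of 5 FPKM only through the Dot1l-deleted libraries, so that count is tied to their level there. Leaving out 1 library gave 12 to 29, with 29 when Dot1l-deleted library 3 was left out and 12 without library 1 or 2 of that group. Calls over all genes, 2345 as deposited, were 5401, 5608, 5716 and 4559 under those 4 normalizations in the order scaling, quantile, weights and scaling without the third library, and 1819 to 4558 with 1 library left out.

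Replicate numbers showed no pairing in the values: same-numbered samples had correlations of deviations of -0.03, -0.038 and 0.013. These correlations cannot settle whether same-numbered samples shared a culture or animal. The replicate block called 17 higher, 3 lower and 2953 genes in all, and with scaling 28 higher and 4461 in all.

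Oasl1 lost its call at a pseudocount of 0.1 and without each control, and Lgals3bp lost its call with no filter. Without Dot1l-deleted library 1 or 2, Oas2, Oas3 and Oasl1 fell under the filter and were not tested. Genes not called as deposited changed sign in a few fits. With 1 library left out, log2 values ranged from -0.0467 to 0.226 for Trim25, from -0.10 to 0.143 for Pml and from -0.0143 to 0.214 for Samd9l, negative without Dot1l-deleted library 1 or 2 (Samd9l: 2 only) and, for Pml, also without control library 3. The causes were not tested. FPKM without counts gives no counting error for low genes.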
